A study of Homo sapiens with 6 samples.

Results

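The human neuroblastoma line SK-N-AS was profiled after a DNA methyltransferase inhibitor and sphere culture, and set against the same line grown as an attached layer. Of 6 expression arrays in the series, 4 enter the comparison: 2 labelled iCSC, for induced cancer stem cells, and 2 labelled Monolayer, which stand for the parental cells. The iCSC cells were given 2.5 uM 5AdC for 5 days while attached and then grown as spheroids in serum-free medium, and the labels give neither a drug nor a medium for the Monolayer cells. The other 2 arrays, labelled Sphere, are spheroids in serum-free medium without the drug, and their values stand beside those of the named genes. The iCSC and Monolayer groups therefore differ in drug and in culture form together, and possibly in medium and its serum, and these cannot be told apart here. The labels do not say that the arrays of a group came from separate cultures, so each p-value reflects the spread between arrays alone, possibly a technical one. With 2 arrays in each group, precision is limited by their number.

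SK-N-AS is a line from a childhood tumour of the sympathetic lineage. Neuroblastoma lines are known to hold an adrenergic state, with the transcription factors and granins of sympathetic neuroblasts, and a mesenchymal state, with matrix, AP-1 and growth factor receptor genes. The drug 5AdC (5-aza-2'-deoxycytidine, decitabine) is built into DNA and traps DNA methyltransferases, so that methylation is lost as cells divide. Genes held silent by promoter methylation in most adult tissues, such as the cancer-testis genes of the X chromosome, are its textbook targets. Serum-free sphere culture is widely used to grow cells that self-renew without attachment.

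All levels are log2 signals from Affymetrix HG-U133 Plus 2.0 arrays, as deposited after the GCRMA method, in which unexpressed probe sets lie at about 2 to 3. A gene was read by 1 probe set and tested where it reached log2 5 on at least 2 of the 6 arrays. Below that limit a level is taken as background. Where both arrays of a culture lay below it, the fold change is a bound, written "at least", with values under 5 set to 5. Differences are iCSC minus Monolayer, given with their SE from limma over all 6 arrays, and calls were made at an adjusted p under 0.05. The 2 arrays of a culture correlated at 0.9957 (Monolayer), 0.9921 (Sphere) and 0.9845 (iCSC) over the tested genes. Monolayer and iCSC arrays correlated at 0.7914 to 0.8048. Between 34.3% and 35.2% of probe sets reached log2 5 on each array.

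Most tested genes differed between iCSC and Monolayer. Of 10459 genes, 5812 (55.6%) passed the test, 3034 (29.0%) higher in iCSC and 2778 (26.6%) lower. Counts of called genes in the lists below are to be read beside these shares. The median difference over all tested genes was 0.02. At least 2-fold differences were found for 1485 called genes that were higher and 1147 that were lower, and at least 16-fold differences for 247 and 203. A total of 528 genes lay under the limit on both Monolayer arrays and at or above it on both iCSC arrays. Of these, 344 were at or above the limit on both Sphere arrays too and 170 were under it on both. The reverse pattern, present in Monolayer and under the limit in iCSC, held for 299 genes, of which 221 were also under it on both arrays of Sphere and 65 were not on either. Without Monolayer replicate 1 the calls fell to 3957, and without Monolayer replicate 2 to 4114. Where leaving out 1 array moved a list count below by over 1.5 times, the count without it is given too.

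**Figure D1:**
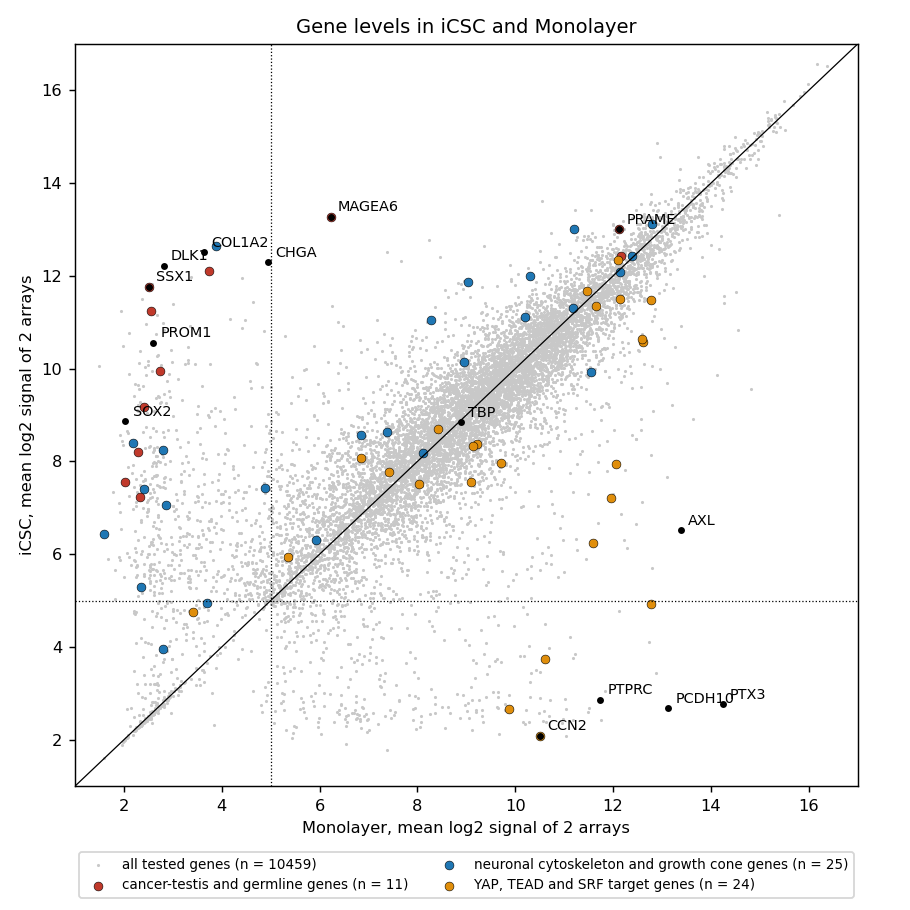
Mean log2 signal of the 2 iCSC arrays (vertical) against that of the 2 Monolayer arrays (horizontal) for the 10459 tested genes, with 3 gene lists in colour and single genes named. The solid line marks equal levels and the dotted lines mark log2 5. Cancer-testis genes stand at the upper left, neuronal genes spread above the line, and most YAP, TEAD and SRF target genes lie below it.

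The 10 largest measured rises came from unlike families. DLK1, an imprinted transmembrane protein of the Notch ligand family found on immature neuroendocrine cells, read 2.64 and 2.98 in Monolayer, 13.87 and 13.97 in Sphere and 11.95 and 12.48 in iCSC, at least 149-fold above Monolayer (adjusted p = 7.42e-07). The other passing probe set of DLK1 was called higher by 1.08. ELAVL4, the neuronal RNA-binding protein HuD, read 3.87 and 3.89 in Monolayer, 12.21 and 12.37 in Sphere and 13.01 and 12.30 in iCSC, at least 201-fold higher (adjusted p = 1.18e-06). NELL2, a secreted neural glycoprotein, read 2.71 and 2.42 in Monolayer, 11.80 and 11.05 in Sphere and 11.73 and 11.92 in iCSC, at least 114-fold higher (adjusted p = 1.44e-06). For these 3 the Sphere arrays also stood high. Collagen chains behaved otherwise. COL1A2, a chain of type I collagen, read 3.44 and 3.84 in Monolayer, 4.99 and 4.22 in Sphere and 13.01 and 12.02 in iCSC, at least 183-fold higher (adjusted p = 9.40e-06), and COL6A3, a chain of type VI collagen, read 1.92 and 1.97 in Monolayer, 7.06 and 7.38 in Sphere and 11.13 and 11.36 in iCSC, at least 75.7-fold higher (adjusted p = 7.42e-07). The Sphere arrays stayed under the limit for COL1A2 and lay between the other cultures for COL6A3. STK26 (a germinal centre kinase), SNX10 (an endosomal sorting nexin) and TLL2 (a metalloprotease of the tolloid family) were also among these 10, with SSX1 and SSX3, and were at least 90.9-fold, 54.6-fold and 75.6-fold higher. Monolayer was at background for all 10, so their order rests on background values, and by the bounds other genes such as MAGEA12 (at least 137-fold) stood above SNX10 and TLL2.

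The 10 largest measured falls began with PTX3, PCDH10 and EPHA3, and held POSTN and PTPRC, which are described further on. PTX3, a soluble pattern recognition protein induced by inflammatory signals, read 14.20 and 14.29 in Monolayer, 6.83 and 8.53 in Sphere and 2.36 and 3.16 in iCSC, at least 605-fold below Monolayer (adjusted p = 1.12e-05). PCDH10, a protocadherin, read 13.06 and 13.19 in Monolayer, 2.65 and 2.67 in Sphere and 2.62 and 2.73 in iCSC, at least 279-fold lower (adjusted p = 7.09e-07). EPHA3, a receptor for ephrin-A ligands, read 12.85 and 12.92 in Monolayer, 3.07 and 3.16 in Sphere and 3.70 and 3.18 in iCSC, at least 236-fold lower (adjusted p = 8.59e-07). These levels are far from each other on the 2 sides. Monolayer and iCSC arrays that do not overlap were a condition for entry to these 10. PAPPA, a protease that frees insulin-like growth factors from their binding proteins, fell at least 90.4-fold, and CD36, a scavenger receptor for lipids, at least 114-fold. Both were under 5 on the Sphere arrays as well (2.67 and 2.72 for PAPPA, 3.03 and 3.14 for CD36). The other 3 of these 10 were C19orf33, at least 65.3-fold lower, C8orf34, at least 89.2-fold, and UBE2QL1, at least 72.3-fold, and all 3 were under 3 on the log2 scale on the Sphere and iCSC arrays. Among genes measured on all 4 arrays, the large falls included PRSS23, a secreted serine protease (12.76 and 12.85 in Monolayer and 5.51 and 5.90 in iCSC), PDGFD, a platelet-derived growth factor (11.33 and 11.56 in Monolayer and 5.88 and 5.91 in iCSC), and F2RL2, a thrombin receptor subunit (12.999 and 13.22 in Monolayer and 7.70 and 7.64 in iCSC). The large rises there included CADM1, a synaptic adhesion molecule (6.46 and 6.06 in Monolayer and 11.47 and 11.25 in iCSC), SMARCA1, a chromatin remodelling ATPase (5.29 and 5.30 in Monolayer and 10.83 and 10.58 in iCSC), and CHRNA3, a nicotinic receptor subunit of autonomic ganglia (8.49 and 7.97 in Monolayer and 12.74 and 12.81 in iCSC).

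Several cancer-testis and germline genes rose from background to high levels in iCSC. Of 52 such genes in the list, 38 had a probe set of their own and 11 passed the limit, and all of these 11 were called higher in iCSC. The filter sets most of that direction, since 8 of them were under log2 5 on both Monolayer arrays and could pass only by being high elsewhere, and the other members with a probe set stayed under the limit. Over all 38 with no filter the median difference was -0.000195, and the 3 members at or above the limit on all 4 arrays were higher, at a median of 0.88. The 4 promoters below belong to genes that were under the limit in Monolayer and present in iCSC, and they show promoters of such genes with few and with moderate numbers of CG. All 4 lie under the median of such genes, which is 24 in the full RefSeq window of 300 bases. Each is the stretch of 250 bases that ends just before the RefSeq gene start, 5′ to 3′ on the gene's strand, from GRCh38.p14, with every CG dinucleotide, the target of DNA methyltransferases, in capitals. They lie at chrX:48255142-48255391 (SSX1, + strand), chrX:49598763-49599012 (GAGE1, + strand), chrX:152733507-152733756 (MAGEA12, + strand) and chr3:181711675-181711924 (SOX2, + strand).
SSX1: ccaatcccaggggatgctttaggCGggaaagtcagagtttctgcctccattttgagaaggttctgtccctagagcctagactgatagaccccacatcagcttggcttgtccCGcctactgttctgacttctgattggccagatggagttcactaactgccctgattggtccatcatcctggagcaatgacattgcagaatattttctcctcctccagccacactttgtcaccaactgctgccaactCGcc
GAGE1: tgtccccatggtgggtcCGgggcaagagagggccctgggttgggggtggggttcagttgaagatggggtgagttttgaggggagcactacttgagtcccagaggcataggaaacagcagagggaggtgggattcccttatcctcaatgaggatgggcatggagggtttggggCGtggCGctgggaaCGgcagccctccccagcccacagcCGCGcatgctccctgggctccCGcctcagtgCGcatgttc
MAGEA12: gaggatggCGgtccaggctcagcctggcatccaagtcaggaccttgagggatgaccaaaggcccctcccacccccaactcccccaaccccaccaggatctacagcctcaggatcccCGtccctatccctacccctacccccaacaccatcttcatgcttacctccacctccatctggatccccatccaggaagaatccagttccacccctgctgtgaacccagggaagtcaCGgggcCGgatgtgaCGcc
SOX2: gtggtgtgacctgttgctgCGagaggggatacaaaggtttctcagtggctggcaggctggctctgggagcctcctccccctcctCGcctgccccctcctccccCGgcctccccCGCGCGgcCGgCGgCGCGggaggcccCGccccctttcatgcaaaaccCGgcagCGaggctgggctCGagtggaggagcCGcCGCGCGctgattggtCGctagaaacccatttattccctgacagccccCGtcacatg
The SSX1 stretch holds 3 CG dinucleotides, that of GAGE1 8, that of MAGEA12 5 and that of SOX2 20.

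SSX1, a germline transcriptional corepressor on the X chromosome, read 2.48 and 2.52 in Monolayer, 2.45 and 2.47 in Sphere and 11.89 and 11.64 in iCSC, at least 109-fold above Monolayer (adjusted p = 7.42e-07). Its relative SSX3 read 2.53 and 2.56 in Monolayer, 2.48 and 2.53 in Sphere and 11.43 and 11.07 in iCSC, at least 76.2-fold higher (adjusted p = 7.42e-07). Monolayer and Sphere arrays were at background for both. MAGEA12, a melanoma antigen that binds ubiquitin ligases, read 3.80 and 3.67 in Monolayer, 2.99 and 2.80 in Sphere and 12.32 and 11.88 in iCSC, at least 137-fold higher (adjusted p = 1.04e-06). MAGEA6, of the same family, read 6.22 and 6.23 in Monolayer, 7.04 and 7.17 in Sphere and 13.39 and 13.17 in iCSC, so it was measurable in Monolayer and still higher in iCSC, by 7.05 ± 0.13 on the log2 scale (SE, adjusted p = 7.42e-07). MAGEA1 rose at least 30.7-fold, MAGEA4 at least 9.14-fold, MAGEA10 at least 4.71-fold, GAGE1 at least 18-fold and TEX14, a protein of germ cell bridges, at least 5.89-fold. For these 5 the Sphere arrays lay under 3 on the log2 scale. A further 2 members were abundant in all cultures. PRAME, a retinoic acid receptor corepressor, read 12.13 and 12.10 in Monolayer, 12.73 and 12.68 in Sphere and 13.02 and 12.98 in iCSC (difference 0.88 ± 0.07, SE, adjusted p = 8.97e-05). CTAG2 read 12.16 and 12.16 in Monolayer, 11.93 and 11.80 in Sphere and 12.52 and 12.33 in iCSC (difference 0.27 ± 0.09, SE, adjusted p = 0.045), and the probe set chosen when those with shared probes were left out gave a difference of -0.73. Its call was lost without any 1 array other than iCSC replicate 2 (adjusted p = 0.0576 to 0.169). SSX, MAGEA and GAGE genes have near-identical copies that share probes, so the member is less certain than the family. With probe sets open to such sharing left out, 5 members were tested, and 4 (MAGEA4, MAGEA10, GAGE1 and PRAME) were higher. CTAG2 was called lower there (difference -0.73, adjusted p = 0.0033).

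**Figure D2:**
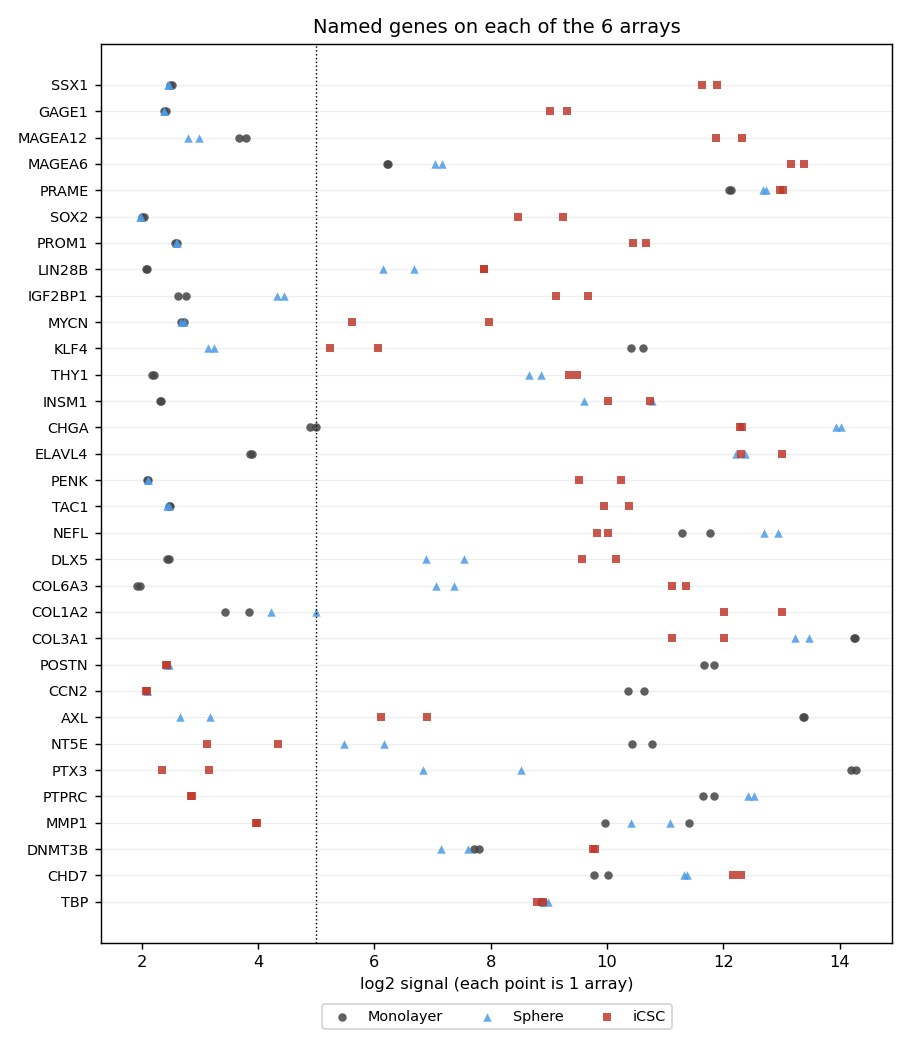
Log2 signal of 32 named genes on each of the 6 arrays, with 1 point for each array and the 3 cultures in colour. The dotted line marks log2 5. SSX1, GAGE1, MAGEA12, SOX2 and PROM1 are near 2 to 4 on all Monolayer and Sphere arrays and above 8 on both iCSC arrays, while TBP, the TATA-binding protein, is near 9 on all 6.

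Several factors of early development rose beside the germline genes, while other members of the pluripotency list were lower or not called. SOX2, an HMG-box factor of embryonic and neural progenitors, read 2.01 and 2.04 in Monolayer, 1.97 and 1.98 in Sphere and 9.25 and 8.47 in iCSC, at least 14.5-fold above Monolayer (adjusted p = 5.61e-06). LIN28B, which blocks maturation of the let-7 microRNAs and is a known neuroblastoma oncogene, read 2.07 and 2.10 in Monolayer, 6.67 and 6.15 in Sphere and 7.88 and 7.89 in iCSC, at least 7.39-fold higher (adjusted p = 4.61e-06). IGF2BP1, an RNA-binding protein of fetal tissues, read 2.62 and 2.77 in Monolayer, 4.45 and 4.33 in Sphere and 9.68 and 9.12 in iCSC, at least 21.1-fold higher (adjusted p = 3.18e-06). All 3 were at background in Monolayer, and SOX2 and IGF2BP1 were under the limit in Sphere too. MYCN, the oncogene amplified in a share of neuroblastomas, read 2.67 and 2.72 in Monolayer, 2.68 and 2.73 in Sphere and 7.97 and 5.62 in iCSC, at least 3.48-fold higher (adjusted p = 0.0026), with iCSC arrays far apart, and it was not called once levels below 5 were raised to 5 (adjusted p = 0.0682). Of 10 MYCN probe sets, 1 passed the limit. KLF4, a zinc finger factor of the reprogramming set and of epithelia, went the other way, from 10.61 and 10.41 in Monolayer to 6.06 and 5.24 in iCSC (difference -4.86 ± 0.28, SE, adjusted p = 2.77e-05). NANOG lay near the limit in all cultures, 5.74 and 6.02 in Monolayer and 5.45 and 5.004 in iCSC (difference -0.66 ± 0.22, SE, adjusted p = 0.039), and lost its call without any 1 array other than iCSC replicate 1 (adjusted p = 0.0605 to 0.168). MYC (10.02 and 10.20 in Monolayer and 10.75 and 10.36 in iCSC, adjusted p = 0.13) and the neural progenitor filament NES (12.36 and 12.34 in Monolayer and 12.40 and 12.90 in iCSC, adjusted p = 0.23) did not pass the test. Of 12 tested pluripotency and stem cell factors, 5 were higher and 2 lower, and 4 were under the limit on both Monolayer arrays. Without either Monolayer array or either Sphere array, 1 was lower. The 8 members at or above the limit on all 4 arrays gave 1 higher and 2 lower.

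Surface proteins used to sort stem-like cells moved in both directions. PROM1, the CD133 antigen, read 2.58 and 2.61 in Monolayer, 2.59 and 2.61 in Sphere and 10.44 and 10.68 in iCSC, at least 47.2-fold above Monolayer (adjusted p = 7.42e-07). THY1, the CD90 antigen, read 2.21 and 2.18 in Monolayer, 8.86 and 8.65 in Sphere and 9.49 and 9.34 in iCSC, at least 21.4-fold higher (adjusted p = 8.64e-07). CXCR4, the receptor for the chemokine CXCL12, read 3.99 and 3.0001 in Monolayer, 5.53 and 5.61 in Sphere and 8.68 and 8.57 in iCSC, at least 12.3-fold higher (adjusted p = 3.90e-05). The Sphere arrays were at background for PROM1, close to iCSC for THY1 and just above the limit for CXCR4. NT5E, the CD73 ecto-enzyme of mesenchymal cells, fell from 10.78 and 10.42 to 4.35 and 3.12, at least 48.5-fold (adjusted p = 4.15e-05). NGFR, the low-affinity neurotrophin receptor of neural crest cells, fell from 9.80 and 9.87 to 4.82 and 5.28, with 1 iCSC array under the limit (difference -4.79 ± 0.20, SE, adjusted p = 7.15e-06). FZD6, a WNT receptor, fell from 9.04 and 9.02 to 6.15 and 5.82 (difference -3.04 ± 0.32, SE, adjusted p = 4.07e-04). In all, 5 of 13 tested markers were higher and 6 lower, with a median difference of -0.30 that turned to 0.22 without iCSC replicate 1.

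Many of the neuronal and neuroendocrine genes that passed the limit were higher in iCSC, part of them from background. Of 15 tested catecholamine and granin genes, 10 were higher and 1 lower, and of 25 tested neuronal cytoskeleton and growth cone genes, 16 were higher and 1 lower. The medians were 3.37 and 1.70, or 1.06 and 1.25 with values under 5 set to 5, against 0.02 over all genes. The filter sets part of this, since 9 and 10 members were under the limit on both Monolayer arrays. Members at or above it on all 4 arrays gave 2 higher and 1 lower of 5 catecholamine and granin genes, at a median of -0.15, and 8 higher and 1 lower of 15 cytoskeleton genes, at a median of 0.94. With no filter the medians were -0.000535 and 1.24. Without either Monolayer array 0 catecholamine and granin genes were lower, and without iCSC replicate 2 there were 2. CHGA, the chromogranin of dense-core vesicles, read 4.89 and 5.002 in Monolayer, 14.02 and 13.93 in Sphere and 12.29 and 12.32 in iCSC, with 1 Monolayer array just under the limit (difference 7.36 ± 0.09, SE, adjusted p = 7.09e-07). GAP43, a growth cone protein, read 2.14 and 2.24 in Monolayer, 10.01 and 10.38 in Sphere and 8.21 and 8.59 in iCSC, at least 10.6-fold higher (adjusted p = 2.99e-06). STMN2, a tubulin-binding growth cone protein, read 2.39 and 2.44 in Monolayer, 13.36 and 13.04 in Sphere and 7.11 and 7.72 in iCSC, at least 5.33-fold higher (adjusted p = 1.08e-05). For CHGA, GAP43 and STMN2 the Sphere arrays stood above the iCSC arrays. The neuropeptide precursors differed. PENK, the enkephalin precursor, read 2.09 and 2.11 in Monolayer, 2.11 and 2.10 in Sphere and 9.52 and 10.23 in iCSC, at least 29.4-fold above Monolayer (adjusted p = 2.74e-06). TAC1, the substance P precursor, read 2.47 and 2.50 in Monolayer, 2.44 and 2.47 in Sphere and 9.96 and 10.38 in iCSC, at least 35.9-fold higher (adjusted p = 1.18e-06). Both Sphere arrays were at background for these 2. NEFL, the light neurofilament chain, was abundant in Monolayer and lower in iCSC (11.78 and 11.30 in Monolayer and 10.02 and 9.83 in iCSC, difference -1.61 ± 0.17, SE, adjusted p = 4.51e-04), while NEFM, the medium chain, rose at least 9.51-fold from background (adjusted p = 4.73e-06). SYT1, the calcium sensor of synaptic vesicles, rose from 10.58 and 10.42 to 12.57 and 12.52, and SYT4, a vesicle protein of the same family, fell from 9.31 and 8.82 to 7.05 and 6.36. Synaptic genes as a list gave 6 higher and 3 lower of 17, and 1 lower without Monolayer replicate 1.

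The transcription factors of the sympathoadrenal lineage did not move as 1 block. INSM1, a zinc finger factor of neuroendocrine progenitors, read 2.32 and 2.34 in Monolayer, 10.77 and 9.60 in Sphere and 10.01 and 10.73 in iCSC, at least 41.4-fold above Monolayer (adjusted p = 1.54e-05). PHOX2A, a homeobox factor of autonomic neurons, read 3.53 and 3.69 in Monolayer, 9.45 and 8.87 in Sphere and 5.83 and 7.01 in iCSC, at least 2.68-fold higher (adjusted p = 0.0014), with the Sphere arrays above both. ISL1, a LIM homeobox factor, fell from 9.04 and 8.94 to 7.78 and 7.92 (difference -1.14 ± 0.14, SE, adjusted p = 7.27e-04). GATA2, a zinc finger factor of the same network, fell from 5.95 and 5.96 to 4.31 and 4.41, at least 1.94-fold (adjusted p = 3.62e-04). GATA3 read 8.68 and 8.21 in Monolayer and 7.98 and 8.40 in iCSC and did not pass the test (adjusted p = 0.37), although the Sphere arrays stood at 12.48 and 12.13. Of 16 tested members, 7 were higher, 2 lower and 7 not called. The filter sets part of this, since 6 members were under the limit on both Monolayer arrays and 2 on both iCSC arrays. The 8 members at or above it on all 4 arrays gave 3 higher and 1 lower, at a median of -0.05.

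Neural crest and patterning genes changed in both directions, with the distal-less factors DLX5 and DLX6 among the large rises. DLX5 read 2.43 and 2.47 in Monolayer, 7.55 and 6.89 in Sphere and 10.15 and 9.57 in iCSC, at least 29.1-fold higher (adjusted p = 5.32e-06), and DLX6, its neighbour on chromosome 7, read 3.15 and 2.67 in Monolayer, 7.31 and 6.73 in Sphere and 9.75 and 9.27 in iCSC, at least 22.8-fold higher (adjusted p = 9.08e-06). The pair on chromosome 2 was present in Monolayer and rose further: DLX1 read 8.93 and 8.73 in Monolayer, 2.86 and 2.81 in Sphere and 12.02 and 11.67 in iCSC and DLX2 read 6.90 and 6.06 in Monolayer, 2.09 and 2.12 in Sphere and 11.15 and 10.67 in iCSC. Both Sphere arrays were at background for DLX1 and DLX2, below Monolayer. A further distal-less factor, DLX4, was lower in iCSC than in Monolayer (difference -1.98). LHX2, a LIM homeobox factor of the forebrain, rose at least 3.94-fold from background (adjusted p = 2.47e-05), with Sphere at 2.16 and 2.15. TFAP2A, an early neural crest specifier, fell at least 3.56-fold (7.22 and 6.45 in Monolayer and 2.45 and 2.44 in iCSC, adjusted p = 3.59e-05), and MSX2, a homeobox target of BMP signals, at least 3.26-fold (6.93 and 6.47 in Monolayer and 3.88 and 3.48 in iCSC, adjusted p = 1.01e-04). Among HOX genes, HOXD13 rose at least 5.42-fold and HOXC13 at least 2.5-fold, both most posterior members of their clusters, while HOXB3 fell from 12.44 and 12.67 to 9.11 and 8.72 and HOXB2 from 11.23 and 11.52 to 8.38 and 8.05. In Sphere, HOXB3 and HOXB2 were under the limit (3.26 and 3.33 and 2.64 and 3.37). The neural crest list held 8 higher and 5 lower of 17 tested, the homeobox list 6 and 5 of 12, and the HOX list 6 and 2 of 12. The filter sets part of this, since 5, 2 and 4 members were under the limit on both Monolayer arrays. Members at or above it on all 4 arrays gave 4 higher and 2 lower of 9, 4 and 3 of 8, and 3 and 2 of 7. With no filter the median of the HOX list was -0.02. Without Monolayer replicate 1 the homeobox list held 5 higher and 3 lower.

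Genes of the mesenchymal neuroblastoma state fell more often than they rose. Of 29 tested, 16 were lower, 4 higher and 9 not called, with a median of -0.69 against 0.02 over all genes, and members present on all 4 arrays gave 14 lower and 3 higher of 23. AXL, the receptor kinase for GAS6, read 13.39 and 13.37 in Monolayer, 3.18 and 2.66 in Sphere and 6.91 and 6.12 in iCSC (difference -6.87 ± 0.30, SE, adjusted p = 8.27e-06). FOSL1, an AP-1 subunit of the mesenchymal circuit, read 9.69 and 9.57 in Monolayer, 3.43 and 4.59 in Sphere and 3.48 and 4.01 in iCSC, at least 24.7-fold below Monolayer (adjusted p = 5.15e-05). TGFBR2, the type II TGF-beta receptor, read 9.79 and 9.71 in Monolayer, 3.82 and 3.53 in Sphere and 6.30 and 5.70 in iCSC (difference -3.75 ± 0.24, SE, adjusted p = 4.50e-05). The iCSC arrays lay below Monolayer for all 3 and above Sphere for AXL and TGFBR2. Several transcription factors and receptors of the same state moved the other way. PRRX1, a paired-type homeobox factor, read 7.80 and 7.27 in Monolayer, 11.87 and 12.02 in Sphere and 10.11 and 10.46 in iCSC (difference 2.75 ± 0.20, SE, adjusted p = 8.57e-05), NOTCH2 read 10.14 and 10.39 in Monolayer, 4.06 and 4.12 in Sphere and 12.44 and 11.90 in iCSC (difference 1.91 ± 0.20, SE, adjusted p = 3.91e-04), and TWIST1, a basic helix-loop-helix factor of mesenchyme, read 10.52 and 10.64 in Monolayer, 12.53 and 12.32 in Sphere and 11.60 and 11.67 in iCSC (difference 1.05 ± 0.10, SE, adjusted p = 2.61e-04). TWIST2, its relative, fell from 11.02 and 10.95 to 6.46 and 4.78, with 1 iCSC array under the limit. The keratins KRT8 and KRT18, filament proteins of simple epithelia that attached cells can also make, were both lower in iCSC, KRT8 at least 31.5-fold (adjusted p = 7.98e-06) and KRT18 with a difference of -4.63 ± 0.19 (SE, adjusted p = 7.17e-06). ZEB2, a zinc finger repressor of epithelial genes, rose from 6.16 and 6.30 to 8.51 and 8.002.

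Targets of YAP, TEAD and SRF, the factors that respond to cell spreading and actin tension, were mostly lower. Of 24 tested, 17 were lower and 3 higher, with a median of -1.07. CCN2, the connective tissue growth factor, read 10.36 and 10.64 in Monolayer, 2.09 and 2.10 in Sphere and 2.08 and 2.09 in iCSC, at least 45.2-fold below Monolayer (adjusted p = 7.42e-07). CCN1, its relative CYR61, read 12.56 and 12.997 in Monolayer, 4.30 and 6.08 in Sphere and 5.38 and 4.46 in iCSC, with 1 iCSC array under the limit (difference -7.86 ± 0.59, SE, adjusted p = 8.88e-05). ANKRD1, a nuclear ankyrin repeat protein, read 9.66 and 10.08 in Monolayer, 2.58 and 2.59 in Sphere and 2.69 and 2.62 in iCSC, at least 29.2-fold lower (adjusted p = 1.38e-06). Sphere and iCSC were both far below Monolayer for these 3. THBS1, thrombospondin, fell from 11.55 and 11.61 to 6.27 and 6.19 (difference -5.35 ± 0.13, SE, adjusted p = 9.19e-07). ACTA2, smooth muscle actin, read 7.66 and 7.18 in Monolayer and 7.60 and 7.95 in iCSC and did not pass the test (adjusted p = 0.46). Without Monolayer replicate 2, 13 of the 24 were lower and 1 higher.

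**Figure D3:**
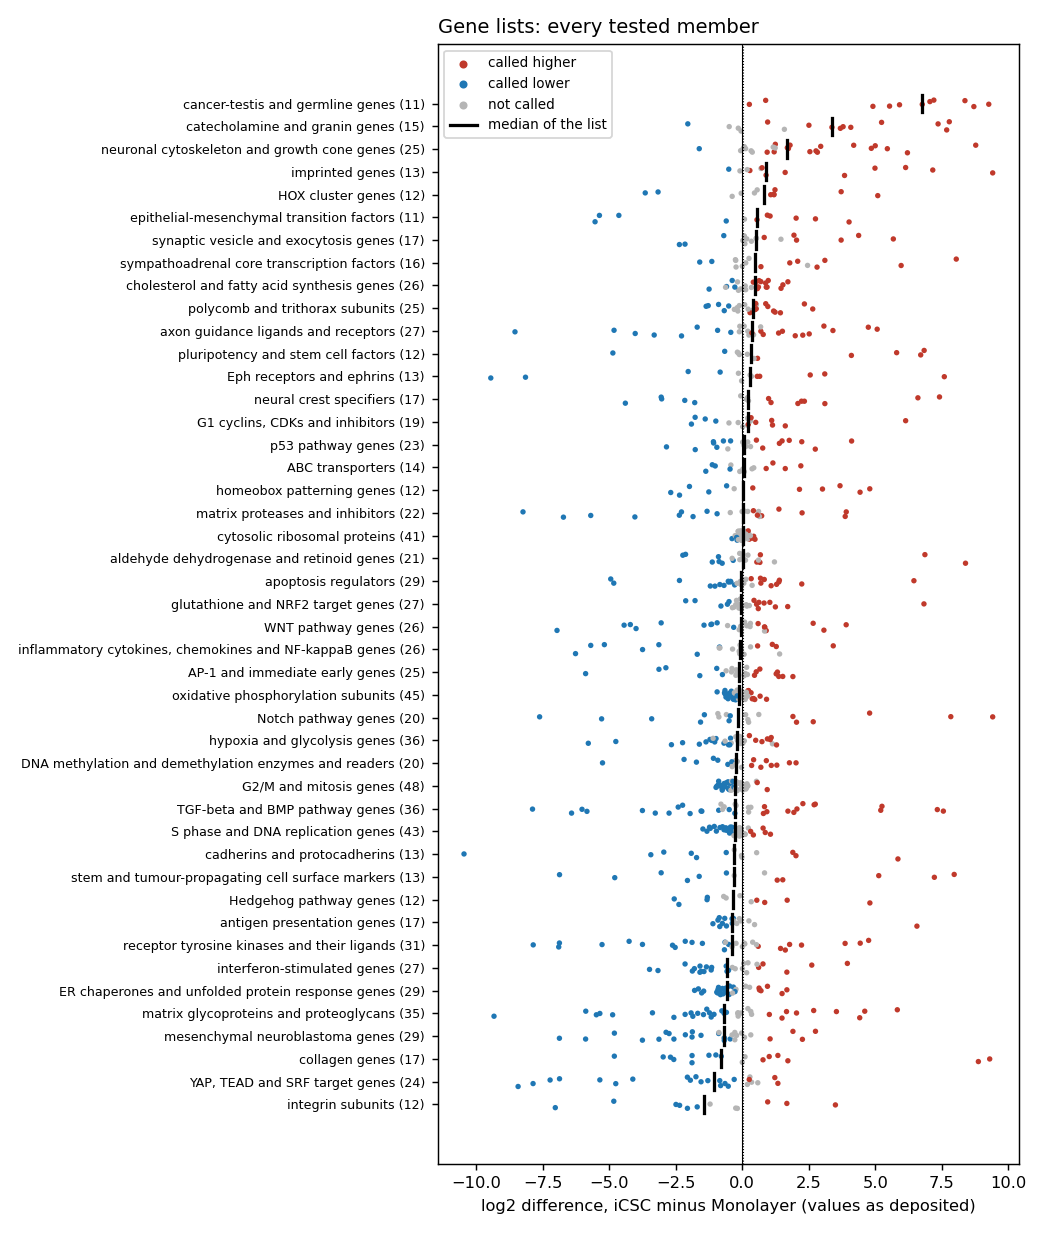
Log2 difference, iCSC minus Monolayer, of each tested member of 45 gene lists (1 point per gene, the number tested in brackets), in order of the list median, which a black bar marks. Red and blue points were called higher and lower at adjusted p under 0.05, and the dotted line is the median of all tested genes, 0.02. Medians run from 6.77 for the 11 cancer-testis genes that passed the limit to -1.45 for integrin subunits, and most lists hold called members on both sides.

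Matrix genes changed in both directions, with more falls than rises. Of 17 tested collagen genes, 6 were higher and 9 lower, and of 35 matrix glycoproteins and proteoglycans, 9 were higher and 19 lower. Type I and VI collagen chains rose (COL1A2 and COL6A3, above), as did COL1A1, from 9.83 and 10.09 to 11.06 and 10.89 (difference 1.01 ± 0.12, SE, adjusted p = 7.28e-04). COL3A1, the fibrillar collagen of soft tissue, fell from 14.27 and 14.25 to 11.12 and 12.01 (difference -2.69 ± 0.27, SE, adjusted p = 3.03e-04), and COL4A1, a basement membrane chain, from 12.59 and 12.57 to 9.91 and 9.31 (difference -2.97 ± 0.23, SE, adjusted p = 9.78e-05). COL4A6, a further basement membrane chain, fell at least 3.9-fold. POSTN, periostin, which cross-links collagen, read 11.67 and 11.84 in Monolayer, 2.44 and 2.48 in Sphere and 2.43 and 2.44 in iCSC, at least 108-fold below Monolayer (adjusted p = 7.42e-07), and both Sphere arrays were at background as well. SPOCK1, a testican proteoglycan, read 12.51 and 12.69 in Monolayer, 2.19 and 2.21 in Sphere and 7.51 and 6.73 in iCSC (difference -5.48 ± 0.26, SE, adjusted p = 1.25e-05), with iCSC between the other cultures. FMOD, fibromodulin, rose at least 5.94-fold, FBN2, fibrillin 2, at least 4-fold, and GPC6, a glypican, from 6.33 and 6.42 to 10.21 and 9.62. As the cells are a line, fibroblast markers were read as a check. Of 10 such markers, 6 reached the limit on both Monolayer arrays and 7 on both iCSC arrays. Of 8 tested, 4 were called higher and 2 lower. The summed level of the 10 markers was 14.47 to 14.49 on the Monolayer arrays and 13.64 to 13.91 on the iCSC arrays, and its part in the collagen values was not tested. The markers include COL1A1, COL1A2 and COL3A1, and the highest signal weighs most in the sum. The sum is therefore no check apart from the collagen values above.

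Matrix proteases and their inhibitors changed in both directions, 7 higher and 9 lower of 22 tested (median 0.04). ADAM12, a membrane protease, read 10.73 and 10.51 in Monolayer, 10.22 and 10.37 in Sphere and 2.43 and 2.35 in iCSC, at least 49.2-fold below Monolayer (adjusted p = 7.42e-07). MMP1, the interstitial collagenase, read 11.40 and 9.97 in Monolayer, 10.41 and 11.09 in Sphere and 3.96 and 3.98 in iCSC, at least 51.5-fold lower (adjusted p = 5.93e-05). The Sphere arrays stood close to Monolayer for both. PLAU, the urokinase, fell at least 9.49-fold (8.37 and 8.12 in Monolayer and 2.24 and 2.87 in iCSC, adjusted p = 8.78e-06), with Sphere at 2.21 and 2.14. CTSK, a cysteine protease that cuts collagen, rose at least 4.26-fold, and TIMP3, an inhibitor of metalloproteases, rose from 7.19 and 7.17 to 11.79 and 10.30 (difference 3.87 ± 0.42, SE, adjusted p = 4.78e-04). Of 12 tested integrin subunits, 6 were lower and 3 higher. ITGA9, a receptor subunit for tenascin, fell at least 27.6-fold (9.85 and 9.72 in Monolayer and 2.96 and 2.56 in iCSC, adjusted p = 7.71e-06) and ITGA3, a laminin receptor subunit, at least 5.02-fold (7.55 and 7.11 in Monolayer and 2.46 and 2.55 in iCSC, adjusted p = 8.69e-06). ITGA5, the fibronectin receptor subunit, rose from 6.60 and 6.68 to 8.27 and 8.38 (difference 1.68 ± 0.28, SE, adjusted p = 0.0026). Of 13 cadherins and protocadherins 3 were higher and 6 lower, or 2 and 3 without Monolayer replicate 1. PCDH18 fell from 11.69 and 12.08 to 8.46 and 8.44, and PCDHB2, of the clustered family, rose at least 9.75-fold.

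Receptors and ligands that guide axons changed in both directions. EPHA4 read 10.89 and 11.14 in Monolayer, 2.84 and 2.94 in Sphere and 2.87 and 2.88 in iCSC, at least 64.5-fold below Monolayer (adjusted p = 7.42e-07), in the same direction as EPHA3 above. EPHA7, a receptor of the same class, read 2.46 and 2.52 in Monolayer, 9.03 and 8.91 in Sphere and 10.45 and 9.71 in iCSC, at least 33.8-fold higher (adjusted p = 2.99e-06), and the ligand EFNA5 rose from 8.11 and 7.70 to 10.61 and 10.32. SEMA5A, a semaphorin, read 10.95 and 11.001 in Monolayer, 2.40 and 2.46 in Sphere and 2.42 and 2.46 in iCSC, at least 62.8-fold lower (adjusted p = 7.42e-07), and NRP1, the neuropilin that binds class 3 semaphorins, read 10.61 and 10.65 in Monolayer, 2.69 and 2.77 in Sphere and 5.90 and 5.73 in iCSC (difference -4.81 ± 0.16, SE, adjusted p = 3.00e-06). NTN1, the guidance ligand netrin, read 2.47 and 3.40 in Monolayer, 3.57 and 3.56 in Sphere and 8.05 and 7.96 in iCSC, at least 8.04-fold higher (adjusted p = 3.38e-05). NEO1, a netrin receptor, rose from 4.86 and 5.59 to 8.74 and 8.53, with 1 Monolayer array under the limit, and ROBO1, the Slit receptor, from 10.55 and 10.53 to 13.69 and 13.52 (difference 3.07 ± 0.08, SE, adjusted p = 1.28e-06). Of 27 guidance genes, 12 were higher and 8 lower. The Eph and ephrin list held 5 higher and 4 lower of 13, and 3 and 3 without Monolayer replicate 1, the same counts as without Monolayer replicate 2.

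Growth factor receptors and ligands gave 14 lower and 8 higher of 31 tested, against 26.6% lower and 29.0% higher over all genes. FGF5, a secreted fibroblast growth factor, read 10.75 and 10.65 in Monolayer, 2.89 and 2.97 in Sphere and 2.86 and 2.85 in iCSC, at least 52.2-fold below Monolayer (adjusted p = 7.42e-07). BDNF, the neurotrophin that signals through TrkB, read 10.17 and 10.47 in Monolayer, 7.13 and 6.35 in Sphere and 3.45 and 3.40 in iCSC, at least 39.9-fold lower (adjusted p = 6.05e-06). PDGFA fell at least 7.73-fold (8.03 and 7.87 in Monolayer and 2.74 and 2.63 in iCSC, adjusted p = 2.73e-06). The falls in FGF5 and PDGFA were to background in Sphere as well, while BDNF was still present there. HGF, the ligand of MET, rose at least 5.9-fold, with Sphere at 11.43 and 11.53, and KITLG, the ligand of KIT, at least 7.19-fold. Of 5 passing HGF probe sets, 3 were called higher and 2 were not called, with differences from -0.01 to 4.75. MERTK, a receptor related to AXL, rose from 5.36 and 4.95 to 9.11 and 8.93, with 1 Monolayer array under the limit (difference 3.87 ± 0.22, SE, adjusted p = 2.50e-05).

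Notch pathway genes changed in both directions too. DLL3, an inhibitory ligand of neuroendocrine cells, read 2.24 and 2.35 in Monolayer, 6.98 and 6.85 in Sphere and 10.14 and 10.13 in iCSC, at least 35.1-fold above Monolayer (adjusted p = 7.42e-07). HES6, an inhibitor of HES1, read 4.89 and 4.74 in Monolayer, 6.80 and 6.51 in Sphere and 9.85 and 9.36 in iCSC, at least 24.3-fold higher (adjusted p = 9.89e-06). DNER, a neuronal Notch ligand, read 10.62 and 10.40 in Monolayer, 2.59 and 2.63 in Sphere and 2.94 and 2.86 in iCSC, at least 45.5-fold lower (adjusted p = 8.59e-07). JAG1, an activating ligand, fell from 10.16 and 10.13 to 5.39 and 4.34, with 1 iCSC array under the limit (difference -5.28 ± 0.41, SE, adjusted p = 1.04e-04), and the target HEY2 fell at least 1.36-fold from a level close to the limit. The list as a whole gave 6 higher and 7 lower of 20, with a median of -0.16 that turned to 0.03 with chromosome medians removed.

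The WNT, BMP and Hedgehog pathways each held both rises and falls. RSPO3, a secreted activator of WNT signals, read 9.65 and 9.63 in Monolayer, 2.62 and 2.69 in Sphere and 2.70 and 2.66 in iCSC, at least 24.9-fold below Monolayer (adjusted p = 9.05e-07), while its relative RSPO2 rose at least 2.96-fold (adjusted p = 1.80e-05). DKK1, a secreted WNT antagonist, fell from 12.43 and 12.06 to 8.27 and 7.35. The receptor FZD1 fell from 12.43 and 12.50 to 8.44 and 8.51 (difference -3.99 ± 0.10, SE, adjusted p = 1.18e-06), and FZD7 rose from 7.88 and 7.78 to 10.70 and 10.29 (difference 2.67 ± 0.20, SE, adjusted p = 8.41e-05). In the BMP arm, BMP7, a ligand, read 2.42 and 3.08 in Monolayer, 7.99 and 7.67 in Sphere and 10.16 and 10.004 in iCSC, at least 33.8-fold higher (adjusted p = 3.56e-06), SMAD9, a receptor-activated SMAD, read 3.52 and 3.19 in Monolayer, 10.37 and 9.89 in Sphere and 11.27 and 10.55 in iCSC, at least 60.2-fold higher (adjusted p = 5.07e-06), and ID4, a target, rose at least 7.48-fold. NOG, the secreted antagonist noggin, read 10.16 and 10.37 in Monolayer, 2.39 and 2.42 in Sphere and 2.41 and 2.37 in iCSC, at least 38.5-fold lower (adjusted p = 7.42e-07). TGFBI, a matrix protein induced by TGF-beta, fell at least 14.7-fold, and the ligand TGFB1 read 8.98 and 8.64 in Monolayer, 5.41 and 6.99 in Sphere and 2.87 and 3.08 in iCSC, at least 14-fold lower (adjusted p = 1.36e-04). Of 36 TGF-beta and BMP genes, 13 were higher and 15 lower. The WNT list held 7 higher and 10 lower of 26. The shares called were 77.8% and 65.4%, and 66.7% for the Hedgehog list, against 55.6% of all tested genes. In the Hedgehog list, with 4 higher and 4 lower of 12, the co-receptor GAS1 fell from 12.94 and 13.13 to 10.68 and 10.63 and BOC, a further co-receptor, from 11.10 and 11.27 to 9.94 and 9.80.

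Single inflammatory genes fell steeply, while the inflammatory list gave 7 lower and 4 higher of 26, with 42.3% called against 55.6% of all tested genes. CXCL8, the neutrophil chemokine interleukin 8, read 9.14 and 9.08 in Monolayer, 3.86 and 6.70 in Sphere and 2.96 and 2.74 in iCSC, at least 17.3-fold below Monolayer (adjusted p = 9.39e-04). LIF, a cytokine of the interleukin 6 family, read 8.03 and 8.10 in Monolayer, 2.30 and 4.12 in Sphere and 2.18 and 2.57 in iCSC, at least 8.37-fold lower (adjusted p = 2.61e-04). TNFAIP3, the NF-kappaB feedback inhibitor A20, read 11.15 and 11.37 in Monolayer, 7.59 and 8.28 in Sphere and 5.62 and 6.54 in iCSC (difference -5.18 ± 0.35, SE, adjusted p = 5.51e-05). The Sphere arrays of CXCL8 and LIF were far apart. VCAM1, an adhesion molecule induced by NF-kappaB, went the other way, from 7.60 and 7.04 to 11.25 and 10.23 (difference 3.42 ± 0.34, SE, adjusted p = 3.03e-04). Without either Monolayer array, 1 gene of the inflammatory list was higher. Of 27 interferon-stimulated genes, 15 were lower and 5 higher, or 3 higher without Monolayer replicate 2 and without iCSC replicate 1. GBP1, a guanylate-binding protein, fell from 9.37 and 9.49 to 5.45 and 6.44 (difference -3.48 ± 0.31, SE, adjusted p = 1.87e-04), and IFI16, a DNA sensor, rose from 8.49 and 8.43 to 12.34 and 12.48 (difference 3.95 ± 0.16, SE, adjusted p = 7.23e-06). PSMB8, an immunoproteasome subunit, read 2.32 and 2.64 in Monolayer, 9.59 and 9.51 in Sphere and 9.05 and 9.04 in iCSC, at least 16.5-fold higher (adjusted p = 1.18e-06), the one rise among 17 antigen presentation genes, of which 10 were lower (6 without Monolayer replicate 1 and 5 without Monolayer replicate 2, with 2 higher without Monolayer replicate 1 or iCSC replicate 1). The AP-1 and immediate early list held 8 higher and 6 lower of 25, or 3 and 5 without Monolayer replicate 1 and 5 and 4 without Monolayer replicate 2.

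PTPRC, the CD45 phosphatase of leukocytes, was among the 10 largest measured falls. It read 11.64 and 11.84 in Monolayer, 12.42 and 12.52 in Sphere and 2.85 and 2.87 in iCSC, at least 107-fold below Monolayer (adjusted p = 7.09e-07), with the Sphere arrays above Monolayer. Of 13 leukocyte markers on the array, PTPRC and CORO1A, an actin-binding protein, were the ones at or above the limit on both Monolayer arrays, and 11 were under it on both. CORO1A was not called. LCP1, a further marker, was called higher in iCSC (difference 3.13), from background in Monolayer and with 1 iCSC array under the limit. Both Sphere arrays reached the limit for LCP1. The summed level of the markers, in which the highest signal weighs most, was 11.75 to 11.93 in Monolayer and 7.72 to 8.96 in iCSC.

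Genes of DNA replication and mitosis were slightly lower, by sizes well below those of the groups above. Of 43 S phase genes, 18 were lower and 5 higher (median -0.29), and of 48 G2/M genes, 19 were lower and 2 higher (median -0.25). The shares called were 53.5% and 43.8%, against 55.6% of all tested genes. POLA2, a subunit of DNA polymerase alpha, fell from 8.90 and 8.81 to 7.55 and 7.77 (difference -1.20 ± 0.14, SE, adjusted p = 6.44e-04), and HMMR, a spindle protein, from 12.03 and 11.87 to 10.86 and 11.14 (difference -0.95 ± 0.13, SE, adjusted p = 0.0013). BUB3, a spindle checkpoint protein, rose from 12.47 and 12.47 to 13.43 and 13.39 (difference 0.94 ± 0.06, SE, adjusted p = 6.11e-05). These counts moved when 1 array was left out. Without Monolayer replicate 1, 8 S phase and 9 G2/M genes were lower. Without Monolayer replicate 2 the numbers were 14 and 8, and without iCSC replicate 1, 11 G2/M genes were lower. The S phase genes that were higher numbered 3 and 0 without Monolayer replicate 1 and 2, and the G2/M genes 1 without either. CDKN1C, the imprinted CDK inhibitor p57, read 2.66 and 3.70 in Monolayer, 6.99 and 5.51 in Sphere and 9.67 and 8.98 in iCSC, at least 20-fold higher (adjusted p = 2.15e-04), and CDKN1B, the inhibitor p27, rose from 9.95 and 9.82 to 11.19 and 10.85 (difference 1.14 ± 0.15, SE, adjusted p = 8.94e-04). CDKN3, a phosphatase of mitotic cells, fell from 10.95 and 11.07 to 8.82 and 9.39. The G1 list held 7 higher and 4 lower of 19, or 4 and 3 without Monolayer replicate 2.

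Genes of the p53 pathway and of apoptosis held both rises and falls. TP53INP1, a p53-induced nuclear protein, read 4.58 and 3.68 in Monolayer, 8.48 and 7.61 in Sphere and 8.73 and 7.76 in iCSC, at least 9.47-fold above Monolayer (adjusted p = 5.35e-04). The death receptor FAS read 4.56 and 4.44 in Monolayer, 7.25 and 7.76 in Sphere and 6.89 and 6.59 in iCSC, at least 3.34-fold higher (adjusted p = 3.45e-04). BID, a BH3-only protein cut by caspase 8, read 2.86 and 3.01 in Monolayer, 9.46 and 9.86 in Sphere and 9.36 and 9.41 in iCSC, at least 20.9-fold higher (adjusted p = 1.56e-06), and PMAIP1, the BH3-only protein NOXA, rose from 11.42 and 11.34 to 12.57 and 12.98 (difference 1.40 ± 0.15, SE, adjusted p = 4.48e-04). CASP4, an inflammatory caspase, fell at least 15.8-fold (9.17 and 8.79 in Monolayer and 4.10 and 4.20 in iCSC, adjusted p = 1.20e-05), and FADD, the adaptor of death receptors, fell from 10.34 and 10.20 to 9.07 and 9.07 (difference -1.20 ± 0.10, SE, adjusted p = 1.59e-04). Of 23 p53 pathway genes, 8 were higher and 7 lower, and of 29 apoptosis regulators, 10 were higher and 12 lower. Over all tested genes 29.0% were higher and 26.6% lower, and a p53 list with 65.2% called is not far from the 55.6% of all genes. Without Monolayer replicate 1, 4 p53 pathway genes and 4 apoptosis regulators were lower. The latter number was 4 without Monolayer replicate 2 and 6 without iCSC replicate 1.

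More chaperone genes of the endoplasmic reticulum were lower than higher, and more sterol and fatty acid synthesis genes were higher than lower. Of 29 ER chaperone and unfolded protein response genes, 19 were lower and 6 higher (median -0.59), or 14 and 3 without Monolayer replicate 1. MANF, a secreted ER stress protein, fell from 11.85 and 12.13 to 10.39 and 10.70 (difference -1.45 ± 0.19, SE, adjusted p = 0.0011), SDF2L1, a chaperone partner, from 10.58 and 10.60 to 8.80 and 9.09 (difference -1.65 ± 0.19, SE, adjusted p = 5.64e-04), and EDEM1, which sends misfolded glycoproteins to degradation, from 9.36 and 9.19 to 7.75 and 7.76. ERN1, the stress sensor IRE1, rose from 6.45 and 6.25 to 8.02 and 8.04 (difference 1.68 ± 0.15, SE, adjusted p = 1.98e-04). Sphere arrays lay on the iCSC side of Monolayer for these 4 genes. Of 26 cholesterol and fatty acid genes, 14 were higher and 4 lower (median 0.47, or 0.37 to 0.54 over the alternatives). SREBF2, the factor that drives sterol synthesis, rose from 6.83 and 6.89 to 8.53 and 8.25 (difference 1.53 ± 0.17, SE, adjusted p = 5.30e-04), and SQLE, squalene epoxidase, from 11.35 and 11.47 to 13.06 and 12.68 (difference 1.46 ± 0.15, SE, adjusted p = 3.21e-04). ELOVL6, a fatty acid elongase, fell from 11.02 and 11.02 to 9.67 and 9.89. The count moved with single arrays, to 4 called higher without Monolayer replicate 1, 9 without Monolayer replicate 2 and 9 without iCSC replicate 1, and to 2 called lower without either Monolayer array.

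Of 36 hypoxia and glycolysis genes, 14 were lower and 7 higher, and the 58.3% called is near the 55.6% of all tested genes. ADM, adrenomedullin, read 8.07 and 8.04 in Monolayer, 2.33 and 2.20 in Sphere and 2.20 and 2.34 in iCSC, at least 8.3-fold below Monolayer (adjusted p = 1.67e-06). SLC2A1, the glucose transporter GLUT1, fell from 7.36 and 7.22 to 5.06 and 5.03 (difference -2.24 ± 0.17, SE, adjusted p = 8.40e-05), and NDRG1, a stress-response protein, at least 4.45-fold. PFKM, a phosphofructokinase subunit, rose from 10.01 and 9.91 to 11.29 and 11.22. Without Monolayer replicate 1, 8 were lower, and without Monolayer replicate 2, 4 were higher. Respiratory chain subunits moved little, 17 lower and 8 higher of 45 at a median of -0.13. Those counts fell to 10 and 4 without Monolayer replicate 1 and to 9 and 4 without Monolayer replicate 2. Ribosomal protein genes moved least, with 33 of 41 not called, 5 higher and 3 lower, and 1 higher and 0 lower without either Monolayer array. Without iCSC replicate 1 the numbers were 2 and 1, and without iCSC replicate 2, 4 and 0. The controls GAPDH (15.04 and 14.95 in Monolayer and 14.82 and 14.98 in iCSC, adjusted p = 0.32) and TBP (8.87 and 8.89 in Monolayer and 8.79 and 8.90 in iCSC, adjusted p = 0.84) did not pass the test. ACTB, an SRF target, read 15.53 and 15.51 in Monolayer and 15.08 and 15.23 in iCSC (difference -0.37 ± 0.08, SE, adjusted p = 0.0074, or 0.0645 and 0.0519 without Monolayer replicate 1 and 2). The log2 difference between the 3' and 5' probe sets of ACTB, a measure of RNA integrity, was 1.25 and 1.16 in Monolayer and 1.47 and 1.40 in iCSC.

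Among enzymes that mark stem-like cells or clear drugs, single genes changed strongly and the lists did not lean. ALDH2, the mitochondrial aldehyde dehydrogenase, read 2.95 and 3.06 in Monolayer, 10.78 and 10.67 in Sphere and 11.37 and 11.42 in iCSC, at least 84.1-fold above Monolayer (adjusted p = 7.09e-07). ALDH1A3, which makes retinoic acid, read 3.21 and 3.28 in Monolayer, 10.47 and 10.46 in Sphere and 10.55 and 9.67 in iCSC, at least 34.5-fold higher (adjusted p = 6.20e-06). AKR1C3, an aldo-keto reductase, read 2.75 and 2.02 in Monolayer, 7.71 and 7.81 in Sphere and 9.97 and 8.45 in iCSC, at least 18.5-fold higher (adjusted p = 7.69e-05). The Sphere arrays were high for these 3. ALDH3B1 fell from 6.31 and 6.09 to 5.23 and 5.39 (difference -0.89 ± 0.19, SE, adjusted p = 0.0078). NFE2L2, the oxidative stress factor NRF2, rose from 11.10 and 11.12 to 12.19 and 12.11 (difference 1.04 ± 0.07, SE, adjusted p = 6.82e-05), while its target NQO1 fell from 12.99 and 12.62 to 10.85 and 11.21 (difference -1.77 ± 0.19, SE, adjusted p = 3.93e-04). Aldehyde dehydrogenase and retinoid genes gave 5 higher and 7 lower of 21 (2 and 5 without Monolayer replicate 1). Glutathione and NRF2 target genes gave 9 and 5 of 27, with 2 lower without Monolayer replicate 1, 5 higher and 3 lower without Monolayer replicate 2, and 3 lower without iCSC replicate 1. ABC transporters gave 4 and 4 of 14. In these 3 lists 57.1%, 51.9% and 57.1% were called, near the 55.6% of all tested genes. ABCC4, an exporter of nucleotides and drugs, rose from 8.90 and 8.84 to 9.83 and 9.71 (difference 0.90 ± 0.11, SE, adjusted p = 8.27e-04), and ABCB10, a mitochondrial carrier, fell from 10.82 and 10.98 to 9.85 and 9.93.

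The machinery that the drug acts on was changed in its de novo arm. DNMT3B, a de novo DNA methyltransferase, read 7.79 and 7.71 in Monolayer, 7.15 and 7.61 in Sphere and 9.76 and 9.79 in iCSC (difference 2.02 ± 0.18, SE, adjusted p = 1.79e-04), and DNMT3A read 8.24 and 8.30 in Monolayer, 8.82 and 8.81 in Sphere and 10.10 and 9.99 in iCSC (difference 1.77 ± 0.11, SE, adjusted p = 4.27e-05). TET1, which oxidises methylcytosine, read 7.09 and 7.09 in Monolayer, 8.28 and 8.51 in Sphere and 8.68 and 8.11 in iCSC (difference 1.30 ± 0.21, SE, adjusted p = 0.0026). The maintenance enzyme DNMT1, the main target of 5AdC, read 12.50 and 12.47 in Monolayer, 12.25 and 12.43 in Sphere and 12.21 and 12.38 in iCSC and did not pass the test (adjusted p = 0.14). GADD45B, linked to demethylation and stress, read 7.90 and 7.94 in Monolayer, 2.68 and 2.80 in Sphere and 2.67 and 2.67 in iCSC, at least 7.56-fold below Monolayer (adjusted p = 2.31e-06), and MBD2, a reader of methylated DNA, fell from 10.67 and 10.54 to 8.74 and 9.03 (difference -1.72 ± 0.15, SE, adjusted p = 1.55e-04). Of 20 such genes, 8 were higher and 7 lower, or 5 and 4 without either Monolayer array, and 5 higher without iCSC replicate 1. Of 25 polycomb and trithorax subunits, 12 were higher and 5 lower. JARID2, a polycomb recruiter of stem cells, rose from 8.60 and 8.51 to 11.04 and 11.38 (difference 2.65 ± 0.14, SE, adjusted p = 2.08e-05), CHD7, a remodeller needed in neural crest, from 9.78 and 10.01 to 12.31 and 12.16 (difference 2.34 ± 0.11, SE, adjusted p = 1.06e-05), and EED, a core polycomb subunit, fell from 11.23 and 11.31 to 9.84 and 9.99 (difference -1.35 ± 0.13, SE, adjusted p = 2.93e-04). Imprinted genes gave 9 higher and 1 lower of 13, with 4 under the limit on both Monolayer arrays, and 0 lower without any 1 array other than iCSC replicate 1. MEG3, the maternal RNA of the DLK1 region, read 3.36 and 3.27 in Monolayer, 8.99 and 9.15 in Sphere and 9.97 and 10.98 in iCSC, at least 44.5-fold higher (adjusted p = 9.18e-06), and GRB10, an adaptor of insulin receptors, read 2.54 and 2.53 in Monolayer, 2.51 and 2.51 in Sphere and 7.48 and 7.57 in iCSC, at least 5.74-fold higher (adjusted p = 2.72e-06). NDN, necdin, read 10.98 and 10.93 in Monolayer and 10.85 and 10.90 in iCSC and did not pass the test (adjusted p = 0.56).

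Whole chromosomes leaned one way. The median difference of the 343 tested genes of chromosome 14 was -0.59, with 32 genes called higher and 212 lower. For chromosome 5 it was -0.41 (65 higher, 259 lower of 496), for chromosome 3 -0.39 (81 higher, 288 lower of 585) and for chromosome 19 -0.23 (77 higher, 244 lower of 657). Medians above 0 were largest for chromosome 12, at 0.54 (329 higher, 47 lower of 569), chromosome 9, at 0.41 (192 and 43 of 417), and chromosome 13, at 0.37 (106 and 18 of 197). In Sphere against the same Monolayer arrays, the medians were -0.46 for chromosome 3 and 0.49 for chromosome 12, but 0.04 for chromosome 14, -0.04 for chromosome 9 and 0.05 for chromosome 13. The 2 comparisons share the Monolayer arrays. DLK1 and MEG3, at least 149-fold and 44.5-fold higher, are thus rises on the chromosome with the lowest median. With the median of each chromosome taken off, calls numbered 5433.

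**Figure D4:**
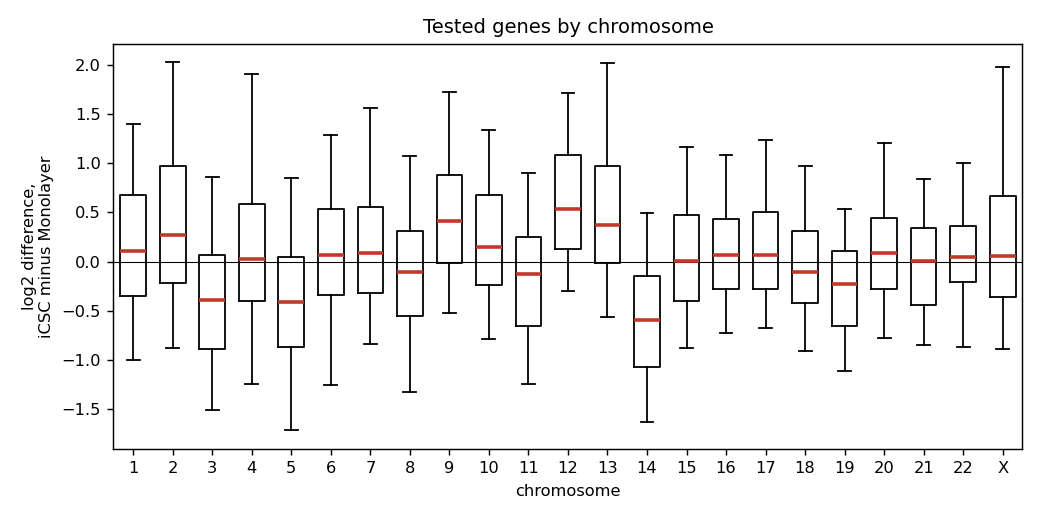
Log2 difference, iCSC minus Monolayer, of the tested genes of each chromosome. Red lines are medians, boxes run from the lower to the upper quartile and whiskers from the lowest to the highest decile. Chromosome 14 has the lowest median (-0.59) and chromosome 12 the highest (0.54).

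Runs of neighbouring genes moved together, on some of these chromosomes and on chromosome 2. The median of chromosome 2 was 0.27 (342 higher, 144 lower of 744). In windows of 25 tested neighbours, the lowest median was -1.11, from AHRR to ATPSCKMT on chromosome 5, where 24 of 25 genes were called lower and none higher. The next lowest lay on chromosome 14, from CEP128 to LGMN (median -0.99, 18 lower and 4 higher), SAV1 to WDHD1 (-0.98, 17 and 2) and HIF1A to RAD51B (-0.97, 18 and 4). The highest medians lay on chromosome 2, from SCRN3 to OSBPL6 (1.53, with 18 higher and none lower), and on chromosome 12, from METTL25 to FGD6 (1.30, with 17 higher and 4 lower). In these 2 windows 16 and 18 of the 25 genes had a Monolayer mean of log2 5 or more, so the filter sets part of these rises. That number was 25 in the chromosome 5 window, and 22, 21 and 24 in the chromosome 14 windows. For comparison, the lowest decile of the 9890 window medians ended at -0.43 and the highest began at 0.52. In Sphere minus Monolayer the chromosome 5 window stood at -0.95 and the chromosome 2 window at 2.19, while the chromosome 14 windows stood at -0.24, 0.01 and 0.16.

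Promoter windows of the changed genes differed in make-up from those of all tested genes. The RefSeq window runs from 250 bases before to 50 bases after the gene start, and 8665 of 10459 tested genes had one (the first listed where a gene had several). Tested genes held a median of 27 CG dinucleotides, genes at least 4-fold higher in iCSC 24, and genes at least 4-fold lower 22, against 14 in all 27305 windows. Under 6 CG dinucleotides were found in 5.53% of tested genes, 14.9% of those higher and 20% of those lower. Genes that were under the limit in Monolayer and present in iCSC held a median of 24, or 21 where Sphere was under the limit too. The 6 cancer-testis genes with a window held a median of 11.5, and none reached 20. The AP-1 motif TGACTCA, searched on both strands, stood in 7.63% of the windows of genes at least 4-fold lower, 2.72% of those higher, 2.62% of all tested genes and 4.92% of all windows. The ETS motif CCGGAAGT stood in 1.32%, 1.36%, 9.45% and 4.44%, and TATAAA in 11.1%, 10.7%, 5.24% and 11.9%. CACGTG, the E-box, stood in 8.42%, 8.16%, 10.7% and 7.44%, and TGACGTCA, the CRE motif, in 1.84%, 2.52%, 3.41% and 1.98%. TGACTCA and TGACGTCA share the letters TGAC, and CACGTG and TGACGTCA the letters ACGT. The promoters of POSTN (chr13:37598769-37599018, - strand) and CXCL8 (chr4:73740319-73740568, + strand) show the AP-1 motif, in capitals, in 2 genes that fell to background; they are printed as above, 250 bases up to the gene start on the gene's strand.
POSTN: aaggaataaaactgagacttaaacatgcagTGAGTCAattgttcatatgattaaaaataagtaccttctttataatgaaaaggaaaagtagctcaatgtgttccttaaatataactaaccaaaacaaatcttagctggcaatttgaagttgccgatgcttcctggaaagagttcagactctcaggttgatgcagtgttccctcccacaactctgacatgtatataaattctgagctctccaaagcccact
CXCL8: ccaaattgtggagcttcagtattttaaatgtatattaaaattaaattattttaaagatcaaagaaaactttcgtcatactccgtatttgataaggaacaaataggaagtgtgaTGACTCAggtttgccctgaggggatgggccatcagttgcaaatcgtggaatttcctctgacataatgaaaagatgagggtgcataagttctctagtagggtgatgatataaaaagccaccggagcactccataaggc
The motif starts 220 bases before the POSTN start and 137 bases before the CXCL8 start. A match is a description of the letters and does not show that a factor binds there.

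**Figure D5:**
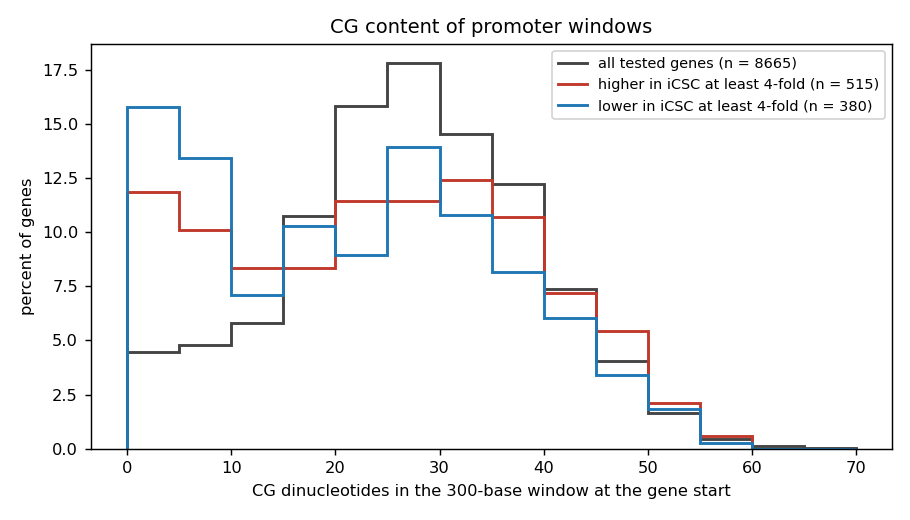
Share of genes by the number of CG dinucleotides in the 300-base promoter window, for all tested genes with a window (grey), genes called higher in iCSC at least 4-fold (red) and genes called lower at least 4-fold (blue). Changed genes hold a larger share of windows with few CG, and the medians are 27, 24 and 22.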

How the data were processed

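Log2 signals of 54675 probe sets on 6 Affymetrix HG-U133 Plus 2.0 arrays were taken from the value table the authors deposited. GCRMA and Partek are named in the submitters' processing notes, with no version. Two-sided tests were made on these log2 values with limma 3.58.1 in R 4.3.3 (a mean per culture over all 6 arrays, eBayes with trend, 3 residual degrees of freedom, Benjamini-Hochberg over 10459 genes). Probe sets with several symbols or none were left out of the gene tests. Symbols came from the platform annotation, updated by Entrez identifier through RefSeq (GRCh38.p14), and of several passing probe sets the one with the highest mean was read. Of 4742 genes with several, 187 had probe sets called in opposite directions. Some named genes, such as COL1A1, BOC, ELOVL6, NFE2L2 and ABCC4, had another passing probe set that was not called. Genes named include the 10 largest changes each way among called genes whose Monolayer and iCSC arrays do not overlap. They also include the 8 largest each way among called genes at log2 5 on all 4 arrays. The others are up to 4 each way per list, a fixed set and the ends of chromosome windows. Members and lists were chosen with earlier results of these data known. No set test was made. Replicate numbers only name arrays: deviations of same-numbered arrays correlated at 0.02 (Monolayer and Sphere), -0.05 (Monolayer and iCSC) and 0.17 (Sphere and iCSC). On simulated arrays with 10459 genes, few of them changed, 10% of changed genes were recovered at 1.5-fold, 64% at 2-fold, 80% at 4-fold and 94% at 8-fold, with 2 false among 126 calls. In the real data 55.6% of genes were called. The adjusted p depends on the share of changed genes, so these rates need not hold for this comparison. Alternatives changed the filter, scaling, probe set choice, moderation, block and arrays used.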

Additional observations from a re-analysis of the deposited data

Results flagged for a closer look

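Probe sets with no gene symbol, or with several, entered no comparison above, and 2500 of them passed the same limit (1584 with none, 916 with several). Of these, 151 were under log2 5 on both Monolayer arrays and at or above it on both iCSC arrays, a signal in data outside the gene tests. Their absence from Monolayer is part of the rule that picked them, and 528 of the 10459 tested genes had the same pattern. A further 107 had the reverse pattern, as had 299 of the tested genes. With the same limma test, 654 of the 2500 were called higher in iCSC and 521 lower, beside 29.0% and 26.6% of the tested genes. What these transcripts are was not tested.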

How the results depend on the processing

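The number of called genes stayed within 1.5 times of 5812 under every alternative but 1: with each passing probe set fitted on its own, 9794 of 18059 were called. Leaving out 1 array gave 3957 (without Monolayer replicate 1) to 5646 calls. The other alternatives gave 4137 (no variance moderation) to 5895 calls, and 4259 of 7747 genes without x_at and s_at probe sets. Genes called in the opposite direction numbered 26 with the mean of a gene's probe sets, 31 when x_at and s_at probe sets were dropped and 17 with chromosome medians removed. The share of calls that were higher was 52.2%, and 48.9% with array medians subtracted. With the replicate block, 5891 genes were called, but the numbers only name arrays. Of 197 named genes, 189 were called, and 185 of these kept call and direction under every alternative that gave them a value. The exceptions were MYCN, NANOG, ACTB and CTAG2. MYCN lost its call with no variance moderation and with values under 5 set to 5, ACTB with no variance moderation and without either Monolayer array, NANOG under 9 alternatives and CTAG2 under 11. NES gained a call without iCSC replicate 1, and GAPDH with chromosome medians removed. CTAG2 turned to -0.23 with the mean of its probe sets and -0.73 without x_at and s_at probe sets, where it was called lower (adjusted p = 0.0033). DNMT1, not called, turned to 0.0435 with chromosome medians removed. TBP, not called, ran from -0.0847 to 0.0206 when 1 iCSC array was left out. Signal over background limits genes under log2 5, for which only bounds are given.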

Other observations

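Among markers of other cell types, read as a check, 4 muscle genes rose from background in iCSC and 1 fell. ACTC1, the cardiac actin, read 2.38 and 2.40 in Monolayer, 2.34 and 2.47 in Sphere and 10.57 and 8.70 in iCSC, at least 24.9-fold above Monolayer (adjusted p = 9.18e-05). TNNI1, the slow troponin I, read 2.20 and 2.20 in Monolayer, 2.19 and 2.21 in Sphere and 8.03 and 6.87 in iCSC, at least 5.46-fold higher (adjusted p = 5.95e-05). MYH3, the embryonic myosin heavy chain, read 2.58 and 2.62 in Monolayer, 2.60 and 2.60 in Sphere and 7.57 and 7.24 in iCSC, at least 5.3-fold higher (adjusted p = 5.23e-06), and DES, desmin, read 1.96 and 1.87 in Monolayer, 3.25 and 3.37 in Sphere and 5.44 and 6.29 in iCSC, at least 1.82-fold higher (adjusted p = 8.19e-05). These 4 were under the limit on both Monolayer and both Sphere arrays. MYH8, the perinatal myosin heavy chain, went the other way, 6.65 and 6.52 in Monolayer and 3.14 and 3.13 in iCSC (adjusted p = 1.20e-05). MYOD1, the master regulator of skeletal muscle, did not reach the limit. The summed level of the 9 muscle markers with a probe set was 7.05 to 7.14 in Monolayer, 5.74 to 5.79 in Sphere and 9.67 to 11.01 in iCSC. Of 10 endothelial markers, 9 were under the limit on both Monolayer arrays and 10 on both iCSC arrays. Of 10 epithelial markers the numbers were 8 and 9, and of the 9 Schwann cell and melanocyte markers with a probe set 8 and 7. The part of these markers in the results was not tested.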
